A study of Mus musculus with 21 samples.

Results

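Renin delivered by an adeno-associated virus (AAV) was compared with a null vector in mouse hearts on 2 diets, with diet held as a block. All 21 libraries of the series entered: 11 from mice given AAV-Renin (6 on chow, 5 on the high-fat diet) and 10 from mice given the control vector (4 on chow, 6 on the high-fat diet). The sample titles name the controls "novirus", whereas the design text calls the same arm a null vector, so they are called controls here. Every mouse was a male C57BL/6NJ, 8 to 10 weeks old at the start, fed chow or a 60% kcal fat diet over 10 weeks, and heart tissue was freeze-clamped 6 weeks after retro-orbital injection. The labels name no gene deletion. The promoter that drives the vector and the species of its renin are not given in the sources used here, and each library is bulk RNA of heart tissue. In such RNA, fewer cells of a type and less RNA per cell cannot be told apart.

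Renin is the protease that cuts angiotensinogen to angiotensin I, which angiotensin-converting enzyme turns into angiotensin II. Through its type 1 receptor angiotensin II constricts vessels and drives aldosterone release, and a lasting excess raises blood pressure and loads the left ventricle. A loaded mouse heart is known to re-express the fetal program of beta-myosin heavy chain, skeletal alpha-actin and natriuretic peptides, to lower the genes of oxidative metabolism and to lay down matrix. Circulating renin normally comes from the kidney.

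The labels could not be checked on the targeted gene, because endogenous Ren1 had at most 5 reads in any library and reads in 4 of 21, 3 of them from renin mice. Library totals ran from 18.7 to 29.3 M (mega) estimated reads. They were higher with renin by 5.795 M for chow and 2.35 M for the high-fat diet (exact permutation of the vector within diet over 97020 arrangements, two-sided p = 0.000165). The mitochondrially encoded share was 29.8 to 38.2% of reads (exact permutation p = 0.0685 for vector). Atrial transcripts were high in 5 libraries, with at least 1 in each group (chow control 3, chow renin 1 and 3, high-fat control 3, high-fat renin 3). Summed over 10 central neuron markers, the level was 299.8 to 469.9 CPM (read counts scaled to library size) in the 6 chow renin hearts, against 133 to 144 in chow controls, 135 to 181 in high-fat controls and 112 to 175 in high-fat renin hearts. A list of 8 stimulated mesenchymal cell markers showed the same split, at 273 to 312 CPM in chow renin hearts and 47.7 to 65.4 CPM in the other 3 groups. None of these 18 markers was at 0 in all libraries. All 10 and all 8 passed the test on chow and rose there, and none rose on the high-fat diet, and the renin effect differed between diets for all 18. On chow 8 of 8 oligodendrocyte and 6 of 7 astrocyte markers also rose, and none on the high-fat diet. The part of all these markers in the results below was not tested beyond a fit with a central nervous score as a covariate. That score is the mean log2 CPM of the central neuron, oligodendrocyte and astrocyte markers. It was 3.07 to 3.84 in chow renin hearts and 1.16 to 1.53 in chow controls. High-fat controls had 1.58 to 2.085 and high-fat renin hearts 1.17 to 2.01. Such a fit cannot tell these transcripts from the renin effect on chow.

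A gene was kept when its renin effect passed an adjusted p of 0.05 in the additive fit (edgeR quasi-likelihood test, Benjamini-Hochberg over 15216 genes) and had the same sign in both diets. Of all genes tested 2391 passed (15.7%), and 2223 of these were kept (14.6%). Of the kept genes 1063 were higher with renin (6.99%) and 1160 lower (7.62%). Effects were modest, with a median absolute log2 fold change of 0.29. Genes that rose had a median of 0.55 and genes that fell one of -0.23. At least a 2-fold change was seen in 241 kept genes that rose and 9 that fell. A mean under 20 CPM was found for 802 of the 1063 that rose (75.4%) and 345 of the 1160 that fell (29.7%), against 63.5% of all genes tested. With the central nervous score as covariate 1990 genes were kept, 1143 of them shared with the 2223.

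Chow and high-fat hearts share no library, so each diet served as a check of the other. Of 773 genes that fell on the high-fat diet (5.08%), 84.6% were also lower on chow, where 55.6% of all genes were lower. Of 511 genes that fell on chow (3.36%), 71.4% were also lower on the high-fat diet, against 51.1% of all genes. Of 1537 genes that rose on chow (10.1%), 47.5% were higher on the high-fat diet, close to the 48.9% of all genes. Of 923 genes that rose on the high-fat diet (6.07%), 57.9% were higher on chow, against 44.4% of all genes. Among genes of at least 20 CPM the share was 63.6% for 121 genes that rose on chow, against 49.5% of all such genes, and 45.4% for 518 that rose on the high-fat diet, against 26.8%. There, of 502 genes that fell on the high-fat diet 90.8% were lower on chow (73.2% of all such genes), and of 393 that fell on chow 73.3% were lower on the high-fat diet (50.5%). Separately significant in both diets with 1 sign were 210 genes (1.38%), 115 higher (0.756%) and 95 lower (0.624%). With upper-quartile scaling these were 117 higher and 53 lower. As a share of each list, they were 7.48% of the genes that rose on chow and 12.5% of those that rose on the high-fat diet, where 6.07% and 10.1% of all genes rose in the other diet. For genes that fell the shares were 18.6% and 12.3%, where 5.08% and 3.36% of all genes fell. The renin effect differed between diets for 1589 genes (10.4%; 478 more positive on the high-fat diet and 1111 more negative, or 281 and 1200 with upper-quartile scaling), among them 312 of the kept genes (14.0%). At a mean of at least 20 CPM 44 genes passed in both diets and 178 differed between diets. With the central nervous score as covariate these were 1 and 24. That score nearly marks the chow renin hearts, so that fit cannot decide how many genes change on chow or differ between diets. Without chow control 4 the kept genes were 1429. Genes significant in both diets fell to between 105 and 138 when any of chow control 1, 2 or 4, chow renin 3 or 5, or high-fat renin 1, 2 or 5 was left out.

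**Figure D1:**
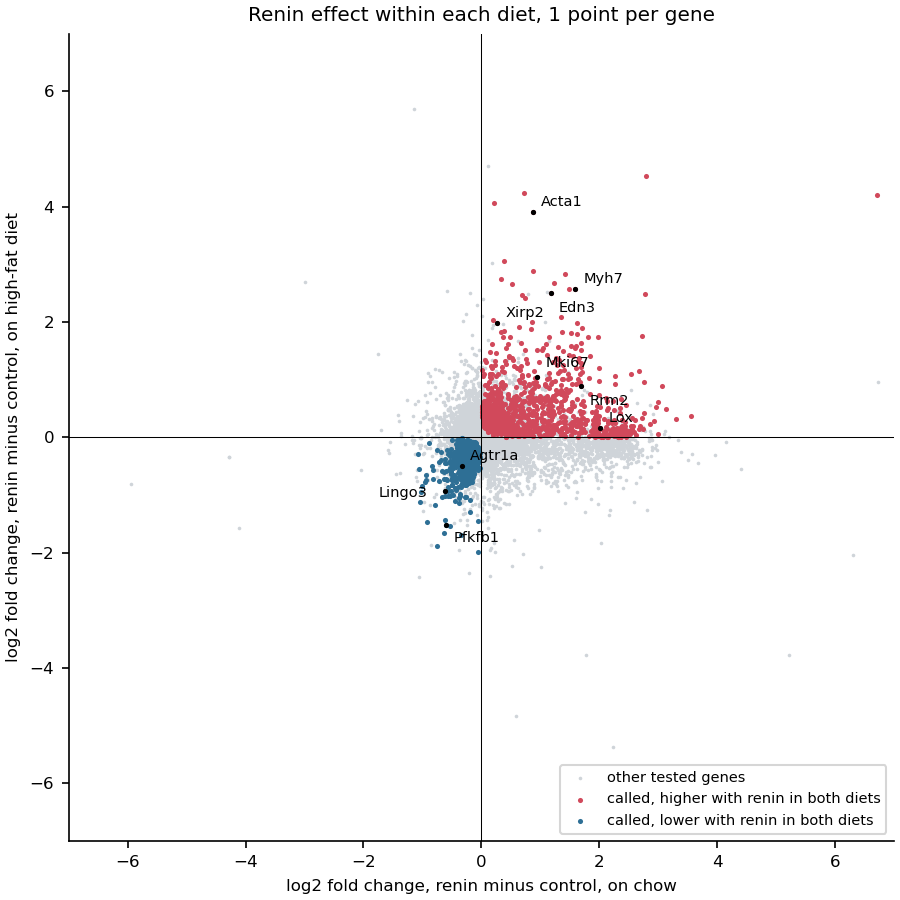
Each point is 1 of 15216 genes. The x axis is its log2 fold change with renin on chow and the y axis that on the high-fat diet, and the kept genes are coloured red (1063 higher) or blue (1160 lower), with labelled genes in black. Many red points lie close to the x axis on the right, and Myh7, Edn3 and Acta1 stand high on the y axis.

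Part of the fetal sarcomere program rose with renin. Of 20 genes known to mark a stressed cardiomyocyte, 7 were kept higher and none lower, where 6.99% and 7.62% of all genes were. The list median was 0.40. The median was 0.31 to 0.89 when 1 heart was left out, at 0.89 without chow control 3 and 0.80 without high-fat control 3. Most of this came from the high-fat diet, where 13 of the 20 rose (6.07% of all genes, list median 0.72). On chow none passed (list median 0.08). The renin effect differed between diets for 5 of the 20 (10.4% of all genes). With the central nervous score as covariate 11 were kept higher. Myh7 encodes the slow beta-myosin heavy chain of the fetal ventricle (ENSMUSG00000053093; GRCm38 chromosome 14, 54970684 to 54994626, minus strand). On chow, Myh7 read 584, 459, 744 and 375 CPM in the controls and 295 to 2513 CPM (median 1784) with renin. On the high-fat diet Myh7 read 189.7 to 608 CPM (median 355) in the controls and 3686, 3305, 2158, 1026 and 1041 CPM with renin. In 5 of 6 chow renin hearts it was above every chow control, with chow renin 6 below all of them, and all 5 high-fat renin hearts were above every high-fat control. The effect over both diets was 4.32-fold (log2 fold change 2.11 ± 0.36 SE, adjusted p = 0.00177), with 1.59 on chow (adjusted p = 0.0571) and 2.57 on the high-fat diet (adjusted p = 0.00371).

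Acta1 encodes the skeletal isoform of alpha-actin, a fetal partner of Myh7 (ENSMUSG00000031972; chromosome 8, 123891769 to 123894751, minus strand). Acta1 on chow read 194, 251, 422 and 142 CPM in the controls and 41.9 to 724 CPM (median 505) with renin. Acta1 on the high-fat diet read 56.5 to 184 CPM (median 98.04) in the controls and 2499, 1840.1, 785, 670.1 and 2291 CPM with renin. High-fat renin hearts lay wholly above their controls, while chow hearts overlapped, with chow renin 6 below every control. Its change over both diets was 2.45 ± 0.57 (SE), adjusted p = 0.00947, made of 0.87 on chow but 3.91 under high fat, and the diets differed (interaction adjusted p = 0.0145).

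Ankrd1, the cardiac ankyrin repeat protein, read 506 to 1036 CPM (median 885) in the controls and 2839.6, 3453, 2076, 1907 and 3199.8 CPM with renin on the high-fat diet, where the groups did not overlap. On chow Ankrd1 read 748, 654, 1832 and 1132 CPM in the controls and 499 to 1807 CPM (median 1593) with renin, and no renin heart exceeded the highest control, chow control 3, one of the hearts with atrial transcripts. Its log2 fold change was 1.08 ± 0.27 (SE), adjusted p = 0.0142 (interaction adjusted p = 0.064). Xirp2, an actin-binding protein of the intercalated disc, had 1.98 on the high-fat diet and 0.26 on chow (adjusted p = 0.611 there, interaction adjusted p = 0.00337). Ankrd2, a muscle ankyrin repeat protein, had 1.39 (0.84 on chow, 1.88 under high fat, interaction adjusted p = 0.465) and lost its call without the 5 hearts with atrial transcripts.

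The natriuretic peptides did not pass in the additive fit. Nppa, the atrial peptide, had 1.26 ± 0.54 (SE), adjusted p = 0.118, and Nppb, the brain-type peptide, 0.91 ± 0.47 (SE), adjusted p = 0.193. Across high-fat hearts Nppa was 27.2 to 246 CPM (median 77.8) in the controls and 1002, 694, 371, 113 and 576 CPM with renin. Across chow hearts Nppa was 263, 149, 534 and 193 CPM in the controls and 54.7 to 462 CPM (median 308) with renin. Chow hearts overlapped, and high-fat renin hearts were higher in 4 of 5. Across high-fat hearts Nppb was 15.9 to 99.4 CPM (median 75.03) in the controls and 629.9, 275, 107, 102 and 252 CPM with renin. Across chow hearts Nppb was 99.1, 100.4, 166 and 145 CPM in the controls and 48.2 to 196 CPM (median 87.6) with renin. All 5 high-fat renin hearts were above every control for Nppb. Within the high-fat diet alone both peptides passed, at 2.40 for Nppa (adjusted p = 0.024) and 2.01 for Nppb (adjusted p = 0.0217). With the central nervous score as covariate both also passed over the 2 diets (adjusted p = 0.0345 and 0.0208). That score was high in chow renin hearts alone, so this is not a result apart from that on the high-fat diet.

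Promoters of Acta1 and Ankrd1 are shown because both genes rose and M-CAT letters are known from muscle promoters. The RefSeq windows (GRCm38.p6) run from 250 bases before to 50 bases after the gene start, 5′ to 3′ on the gene's strand. Capitals mark CATTCC (the M-CAT letters) and TATAAA (the TATA box), each on either strand.
Acta1, chr8:123894726-123895025, minus strand: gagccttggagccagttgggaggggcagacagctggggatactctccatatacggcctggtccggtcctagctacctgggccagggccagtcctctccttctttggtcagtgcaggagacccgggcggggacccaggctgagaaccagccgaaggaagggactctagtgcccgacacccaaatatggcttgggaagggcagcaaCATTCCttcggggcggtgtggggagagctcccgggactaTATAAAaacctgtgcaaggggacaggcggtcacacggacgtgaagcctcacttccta
Ankrd1, chr19:36119795-36120094, minus strand: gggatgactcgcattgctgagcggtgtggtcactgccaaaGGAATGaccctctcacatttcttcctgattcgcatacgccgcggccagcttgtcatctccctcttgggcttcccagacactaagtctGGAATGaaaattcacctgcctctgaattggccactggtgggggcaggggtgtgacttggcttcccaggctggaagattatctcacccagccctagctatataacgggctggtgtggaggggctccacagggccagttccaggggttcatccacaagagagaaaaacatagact
Over all 11393 tested genes with a window, 14.7% held CATTCC and 9.70% TATAAA on either strand. Of 19 stress genes with a window 6 held each motif. CATTCC stood in 16.7% of kept genes that rose and 13.4% of those that fell. A match describes letters only.

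Part of the adult sarcomere and excitation program fell. Of 22 genes of the adult cardiomyocyte 10 were kept lower and none higher, where 7.62% and 6.99% of all genes were, with a median of -0.21. On the high-fat diet alone 8 fell and 3 rose (5.08% and 6.07% of all genes), and on chow 4 fell (3.36%). The renin effect differed between diets for 4 (10.4%). With the central nervous score as covariate 8 were kept lower and 2 higher. Myh6, the fast adult alpha-myosin heavy chain, read 34137, 35147, 29180.0 and 33184 CPM in the controls and 26787 to 29018 CPM (median 27382) with renin on chow. Myh6 under the high-fat diet read 24933 to 31053 CPM (median 29541) in the controls and 21769, 20951, 25870.0, 26294 and 23215 CPM with renin. Every chow renin heart was below every chow control. The change was small, -0.28 ± 0.05 (SE), adjusted p = 0.00184. Kept lower were also Tnni3 and Tnnt2, cardiac troponins, at -0.40 and -0.30, and Kcnd2, a transient outward potassium channel, at -0.57.

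Per transcript length (TPM), Myh7 made up 1.48, 1.05, 2.14 and 0.938% of Myh6 plus Myh7 in the chow controls and from 0.877 to 7.72% (median 5.52%) in chow renin hearts. The share in high-fat controls was 0.451 to 1.79% (median 1.06%), and in high-fat renin hearts it was 13.0, 11.97, 7.29, 3.19 and 3.67%. All 5 high-fat renin hearts and 5 of 6 chow renin hearts were thus above every control of their diet, while alpha-myosin remained the main isoform in every library.

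**Figure D2:**
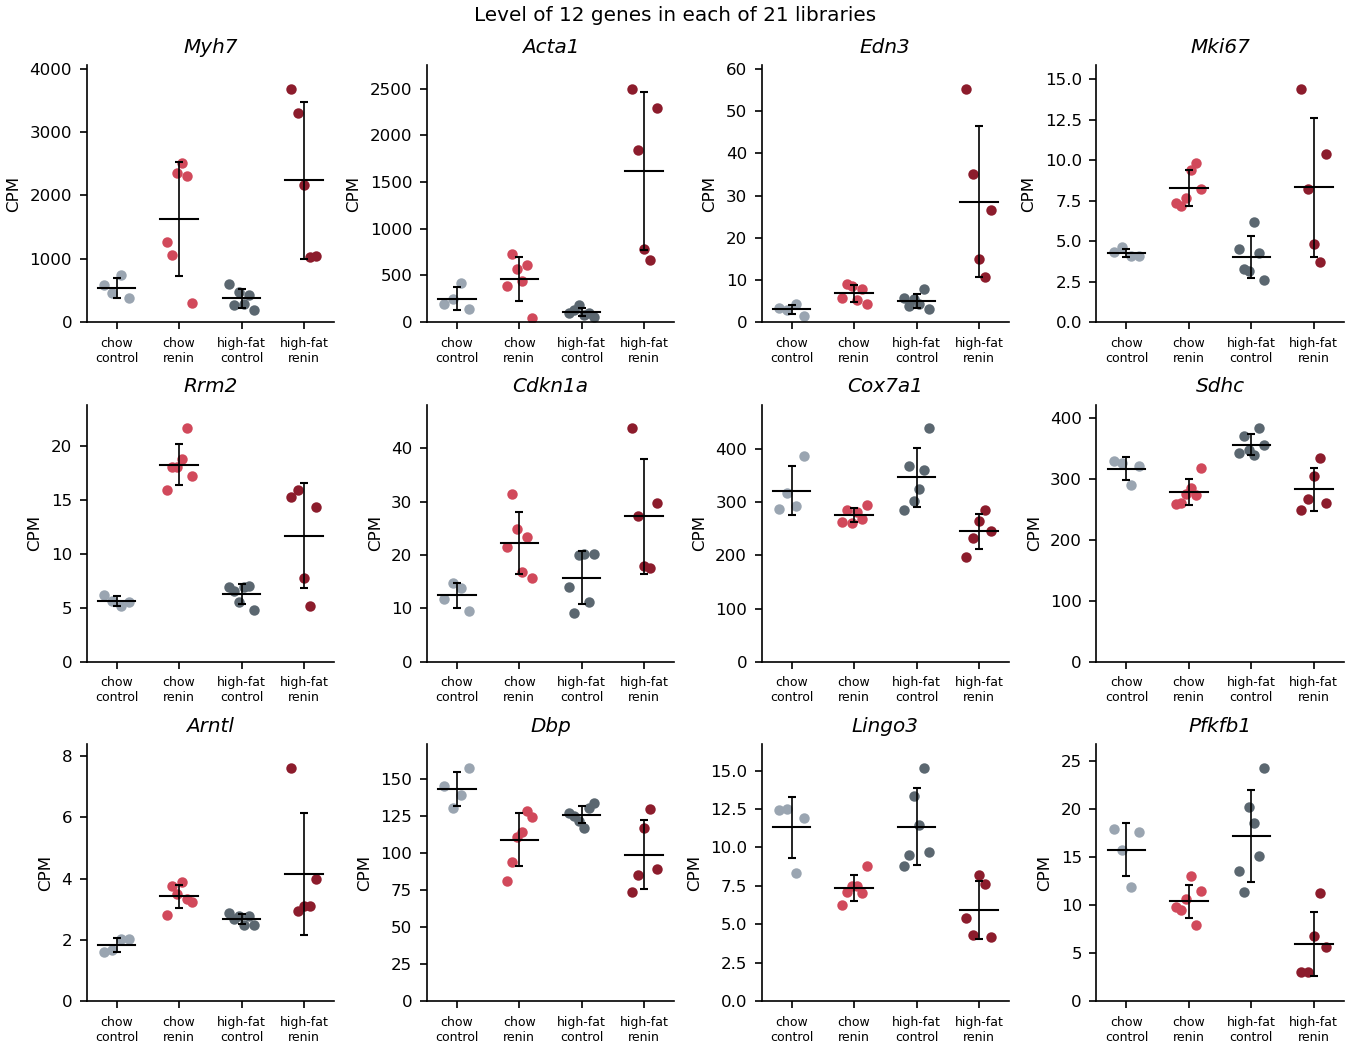
Level of 12 genes in CPM (y axis, from 0) in each of the 4 groups (x axis). Each point is 1 library, with a bar for the mean and a whisker for the standard deviation (n = 4, 6, 6 and 5). Myh7, Acta1 and Edn3 are widely spread among renin hearts, whereas Rrm2 in chow renin hearts lies wholly above the chow controls.

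In the renin-angiotensin-aldosterone system, 1 of 17 tested genes was kept, a share near that of all genes (7.62% kept lower). Agtr1a, the type 1 angiotensin II receptor (ENSMUSG00000049115; chromosome 13, 30336441 to 30382867, plus strand), read 34.7, 39.8, 31.7 and 44.1 CPM in the controls and 28.1 to 31.4 CPM (median 30.4) with renin on chow. Under high fat, Agtr1a read 21.1 to 38.8 CPM (median 31.9) in the controls and 19.6, 24.3, 26.2, 25.2 and 16.8 CPM with renin. All 6 chow renin hearts were below every chow control, whereas 2 of 5 high-fat renin hearts were below every high-fat control. Its log2 fold change was -0.42 ± 0.09 (SE), adjusted p = 0.00617. Ace, the angiotensin-converting enzyme, had 0.20 (adjusted p = 0.277) and differed in its renin effect between diets (-0.16 on chow, 0.51 on the high-fat diet, interaction adjusted p = 0.0298). Ace passed with the central nervous score, high in chow renin hearts alone, as covariate (adjusted p = 0.0425). Agt, the precursor angiotensinogen, had -0.19 (adjusted p = 0.556).

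Among 24 genes of endothelin, natriuretic peptide and nitric oxide signalling, 3 were kept higher and 1 lower, where 6.99% and 7.62% of all genes were. Leaving out 1 heart gave 3 to 4 higher and 0 to 3 lower, the 3 without chow renin 6. Edn3 encodes endothelin 3, a vasoactive peptide (ENSMUSG00000027524; chromosome 2, 174760619 to 174784042, plus strand). On chow, Edn3 read 3.44, 2.999, 4.21 and 1.45 CPM in the controls and 4.399 to 9.01 CPM (median 6.77) with renin. Edn3 under the high-fat diet read 3.03 to 7.82 CPM (median 4.91) in the controls and 55.3, 35.2, 15, 10.6 and 26.7 CPM with renin. In both diets all renin hearts were above every control. The effect was 3.90-fold (log2 fold change 1.96 ± 0.31 SE, adjusted p = 0.000936). Nos1, neuronal nitric oxide synthase, changed by 1.28 ± 0.27 (SE), adjusted p = 0.00435, at a mean of only 0.98 CPM. Nos1 had 1.67 on chow, where the central neuron markers also rose, and 0.96 under high fat (adjusted p = 0.0791). Prkg1, the cyclic GMP-dependent kinase, changed by 0.46. The lower gene was Nos3, endothelial nitric oxide synthase, at -0.20. Its call was lost in 14 of 21 single-library omissions (chow control 2 to 4, all 6 chow renin, high-fat control 2, 5 and 6, and high-fat renin 2 and 5).

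Part of the matrix genes rose, and unevenly. Of 22 collagens 4 were kept higher (Col11a1 1.31, Col8a1 1.08, Col12a1 0.94, Col5a2 0.56) where 6.99% of all genes were. All 22 had an additive estimate above 0, but 11 were above 0 in both diets. The list's median was -0.01 on chow and 0.52 under high fat. Called higher were 1 gene on chow and 7 under high fat (10.1% and 6.07% of all genes), and none in both. The count of 4 was 8 without chow control 3, and 7 without the 5 hearts with atrial transcripts or with the central nervous score as covariate. Col12a1 lost its call without chow control 1, 2 or 4 or chow renin 1, and Col11a1 lost it without the 5 hearts with atrial transcripts. Both lost it with the central nervous score as covariate. Col11a1 had 1.99 on chow and 0.73 under high fat. Of 44 other matrix and crosslinking genes 9 were kept higher and 1 lower, where 6.99% and 7.62% of all genes were, with a median of 0.38. The lower gene was Ltbp1, a latent TGF-beta binding protein, at -0.30, named after its value was seen. Timp1, an inhibitor of matrix proteases, read 1.29, 1.83, 2.803 and 1.11 CPM in the controls and 4.32 to 7.34 CPM (median 5.46) with renin on chow. Among high-fat hearts Timp1 was 1.35 to 5.04 CPM (median 2.09) in the controls and 5.65, 4.41, 3.59, 5.86 and 4.92 CPM with renin (log2 fold change 1.24 ± 0.21 SE, adjusted p = 0.00109). Every chow renin heart was above every chow control, and 2 of 5 high-fat renin hearts above every high-fat control.

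For Col8a1 and Lox the renin effect differed between diets. Col8a1, a short-chain collagen of vessels and stressed myocardium, read 12.5 to 19.9 CPM (median 15.2) in the controls and 71.8, 46.4, 27.4, 30.6 and 59.3 CPM with renin on the high-fat diet, with no overlap. On chow Col8a1 read 14.9, 14.7, 20.1 and 13.8 CPM in the controls and 15.2 to 27.3 CPM (median 21.3) with renin, with overlap, and the diets differed (0.45 against 1.62, interaction adjusted p = 0.0211). Lox, the crosslinking lysyl oxidase, went the other way: 2.01 on chow but 0.16 under high fat (interaction adjusted p = 9.51e-05), so its additive value of 1.0 describes neither diet. The chow part of Lox moved with the stimulated mesenchymal markers, whose part in the result was not tested. With the central nervous score as covariate its call was lost. Cilp, a cartilage matrix protein, had 1.71 ± 0.52 (SE), adjusted p = 0.0339, and its effect was not shown to differ between diets (0.53 on chow, adjusted p = 0.712, and 2.66 under high fat, interaction adjusted p = 0.161). Among high-fat hearts Cilp was 3.07 to 20.8 CPM (median 4.57) in the controls and 65.02, 52.5, 34.9, 31.1 and 58.5 CPM with renin. Among chow hearts Cilp was 3.29, 2.89, 22.9 and 3.01 CPM in the controls and 3.24 to 22.9 CPM (median 8.95) with renin. Its highest controls were chow control 3 (22.9 CPM) and high-fat control 3 (20.8 CPM), both with atrial transcripts, and its call was lost without any of chow control 1, 2 or 4, chow renin 3, high-fat control 1, 2, 4 or 5, or high-fat renin 1 or 5. Without the 5 hearts with atrial transcripts 17 of the 44 genes and 7 of the 22 collagens were kept higher. Leaving out 1 heart gave 5 to 17 of the 44 (5 without chow control 1, 2 or 4, 17 without chow control 3, 15 without high-fat control 3 and 14 without high-fat control 6) and 3 to 8 of the 22 (8 without chow control 3).

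The 4 fibrosis markers of the panel did not pass. Postn, periostin, had 0.80 (adjusted p = 0.111), Col1a1 0.29 (adjusted p = 0.384), Col3a1 0.17 (adjusted p = 0.629) and Ccn2, connective tissue growth factor, 0.47 (adjusted p = 0.174). Postn passed without chow control 3 (adjusted p = 0.0187), without the 5 hearts with atrial transcripts (adjusted p = 0.0196) and with the atrial score as covariate (adjusted p = 0.0488).

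Most cell cycle genes rose. Of 26 tested, 23 were kept higher and 1 lower, where 6.99% and 7.62% of all genes were. The median log2 fold change was 0.85 (0.93 on chow, 0.65 on the high-fat diet). Within chow 19 of 26 rose (10.1% of all genes). Within the high-fat diet 15 rose and 1 fell (6.07% and 5.08%), and 13 passed in both (1.38%). Mki67, a marker of cycling cells, read 4.33, 4.61, 4.101 and 4.07 CPM in the controls and 7.19 to 9.85 CPM (median 7.93) with renin on chow, where all 6 renin hearts were above every control. On the high-fat diet Mki67 read 2.63 to 6.19 CPM (median 3.78) in the controls and 14.4, 8.23, 4.85, 3.73 and 10.4 CPM with renin, with renin hearts 1, 2 and 5 above every control and hearts 3 and 4 inside the control range. Its change was 1.0 ± 0.19 (SE), adjusted p = 0.00234.

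Ribonucleotide reductase subunit Rrm2, which makes deoxynucleotides for DNA synthesis, read 6.18, 5.61, 5.14 and 5.53 CPM in the controls and 15.9 to 21.6 CPM (median 18.01) with renin on chow. High-fat hearts had Rrm2 at 4.78 to 6.97 CPM (median 6.73) in the controls and 15.2, 15.9, 7.79, 5.16 and 14.3 CPM with renin. Heart 4 of the high-fat renin group was again within the controls, and the other 4 were above them (log2 fold change 1.26 ± 0.18 SE, adjusted p = 0.0003). Top2a, topoisomerase II alpha, had 1.06 ± 0.19 (SE), adjusted p = 0.00149. Cdk1 and its mitotic cyclin Ccnb1 were among the larger changes, at 1.46 and 1.56. Cdkn1a, the cyclin-dependent kinase inhibitor p21, also rose (log2 fold change 0.81 ± 0.18 SE, adjusted p = 0.00756), and Cenpf, a kinetochore protein named after its value was seen, was the member that fell (log2 fold change -1.06 ± 0.30 SE, adjusted p = 0.0233). The count of 23 was 19 to 24 when 1 heart was left out, 18 with the central nervous score as covariate and 0 with the clock score described below. At a mean of at least 20 CPM 1 member was tested, Cenpf, which was kept lower.

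Promoters of Ccnb1, Cdk1 and Top2a are shown because these genes moved together and cell cycle promoters are known for CCAAT boxes and a cell cycle homology region (CHR). Both motifs were picked after the values were seen. Capitals mark CCAAT and TTTGAA on either strand in the same RefSeq windows.
Ccnb1, chr13:100786437-100786736, minus strand: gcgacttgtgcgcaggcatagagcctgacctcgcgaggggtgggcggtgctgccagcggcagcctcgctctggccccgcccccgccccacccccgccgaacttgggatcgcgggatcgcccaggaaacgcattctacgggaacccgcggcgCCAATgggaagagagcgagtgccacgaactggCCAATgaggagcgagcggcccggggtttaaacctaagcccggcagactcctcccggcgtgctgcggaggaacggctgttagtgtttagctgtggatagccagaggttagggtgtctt
Cdk1, chr10:69352863-69353162, minus strand: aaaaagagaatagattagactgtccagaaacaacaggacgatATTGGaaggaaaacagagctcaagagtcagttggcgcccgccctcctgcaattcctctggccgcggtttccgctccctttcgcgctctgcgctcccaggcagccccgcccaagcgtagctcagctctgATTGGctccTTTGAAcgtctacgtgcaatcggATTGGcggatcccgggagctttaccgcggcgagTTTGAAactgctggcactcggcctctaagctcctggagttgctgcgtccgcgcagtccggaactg
Top2a, chr11:99024140-99024439, minus strand: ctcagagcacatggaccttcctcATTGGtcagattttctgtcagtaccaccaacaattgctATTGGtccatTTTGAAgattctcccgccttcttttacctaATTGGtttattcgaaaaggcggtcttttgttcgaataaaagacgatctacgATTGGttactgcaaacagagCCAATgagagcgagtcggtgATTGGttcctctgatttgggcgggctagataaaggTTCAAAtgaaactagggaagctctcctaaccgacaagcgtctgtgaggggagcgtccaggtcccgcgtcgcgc
Of 21 cell cycle genes with a window 19 held CCAAT, against 42.5% of all tested genes with a window, and 12 held TTTGAA, against 14.5%. The share for kept genes that rose was 43.3% for CCAAT and 18.2% for TTTGAA.

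Respiratory chain genes fell by small amounts. Of 73 nuclear-encoded subunits tested, 71 were kept lower and none higher, against 7.62% of all genes. Ndufa10 and Ndufb3 were the others. All 73 were lower in both diets, with a median of -0.21 (-0.17 on chow, -0.25 on the high-fat diet). Cox7a1, the muscle isoform of a complex IV subunit (ENSMUSG00000074218; chromosome 7, 30184144 to 30186078, plus strand), had the largest drop of the list at -0.37. On chow, Cox7a1 read 288, 318, 292 and 387 CPM in the controls and 261 to 295 CPM (median 275) with renin. Cox7a1 under the high-fat diet read 285 to 439 CPM (median 342) in the controls and 198, 232, 264, 286 and 246 CPM with renin. Renin hearts were below every control in 5 of 6 on chow and 4 of 5 on the high-fat diet. Ndufs7, a complex I subunit, had -0.33 ± 0.06 (SE), adjusted p = 0.00241, with all 6 chow renin hearts below every chow control. The 71 called drops ran from -0.37 to -0.14, so none reached a 2-fold change. The count was 52 to 71 under the other settings, save 47 with the central nervous score and 0 with the clock score as a covariate.

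Part of the other arms of oxidative metabolism fell too. Of 18 tricarboxylic acid cycle genes 14 were kept lower (7.62% of all genes), and all 18 were lower in both diets, with a median of -0.19. Sdhc, which anchors succinate dehydrogenase in the membrane, read 339 to 383 CPM (median 351) in the controls and 249, 267, 305, 333 and 260.2 CPM with renin on the high-fat diet, below every control in 5 of 5 renin hearts. On chow it read 329, 325, 289 and 321 CPM in the controls and 258 to 317 CPM (median 274) with renin (log2 fold change -0.26 ± 0.05 SE, adjusted p = 0.00321). Of 34 fatty acid genes 11 were kept lower (7.62% of all genes), while 1 fell within chow and 10 within the high-fat diet (3.36% and 5.08%). Among the 11 were Etfb, an electron transfer flavoprotein, at -0.36, and Esrra, the orphan receptor that drives mitochondrial genes, at -0.26. Single omissions gave 6 to 14 for this list, at 7 or fewer without any of chow control 1, 2 or 4, chow renin 1, 2, 3 or 5, high-fat control 2 or 5, or high-fat renin 1 or 5.

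In the branched-chain amino acid and ketone list 12 of 20 genes were kept lower (7.62% of all genes). Leaving out 1 heart gave 8 to 14. Ppm1k, the phosphatase that activates branched-chain ketoacid dehydrogenase, had -0.46 ± 0.11 (SE), adjusted p = 0.00828, and Bckdhb, a subunit of that enzyme, -0.39. Of 31 glucose genes 7 were kept lower and 1 higher, where 7.62% and 6.99% of all genes were. The count of 1 was 2 without high-fat control 4 or 6 or high-fat renin 3, and 3 without high-fat renin 4, with DESeq2, at a mean of at least 20 CPM or with the central nervous score as covariate. Slc2a4, the insulin-responsive glucose transporter GLUT4, read 381, 390.0, 315 and 369.7 CPM in the controls and 252 to 294 CPM (median 276) with renin on chow, every renin heart below every control. On the high-fat diet Slc2a4 read 243 to 332 CPM (median 297) in the controls and 229.8, 207, 260.4, 243 and 245 CPM with renin, with 3 of 5 below (log2 fold change -0.35 ± 0.06 SE, adjusted p = 0.00059). Pfkfb1, which sets fructose 2,6-bisphosphate, had -1.09 ± 0.22 (SE), adjusted p = 0.00414. The higher gene was Pfkp, a phosphofructokinase isoform, at 0.65.

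The 13 mitochondrially encoded genes were all lower in the additive fit, and 1 (mt-Nd1, a complex I subunit, -0.19) was kept, near the 7.62% of all genes kept lower. Leaving out 1 heart gave 0 to 4 kept lower (4 without high-fat control 3 or 6, 3 without chow control 3 or high-fat renin 4), and DESeq2 gave 4. The mt-Nd1 call was lost without chow control 1 or 2, chow renin 1 or 3, high-fat control 2 or 5, or high-fat renin 1. Ribosomal protein genes had 3 of 53 kept lower (7.62% over all genes), and leaving out 1 heart gave 1 to 5: 1 without any of chow control 1 or 4, chow renin 1, 2, 3 or 5, high-fat control 5, or high-fat renin 1, 2 or 5, and 5 without high-fat control 1. Upper-quartile scaling gave 1.

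**Figure D3:**
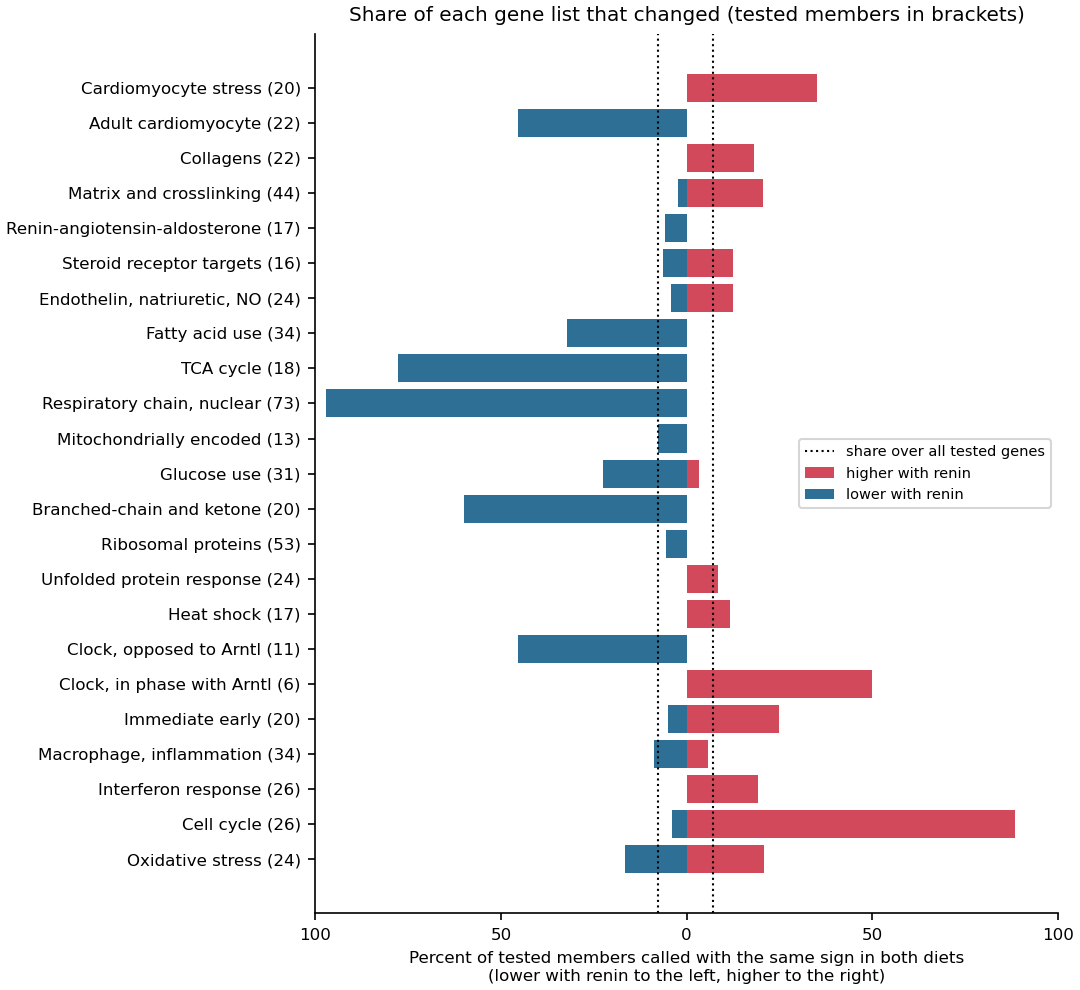
Each bar gives the percent of the tested members of a list that were kept, with lower to the left and higher to the right (number tested in brackets). Dotted lines mark the shares over all genes tested (6.99% higher, 7.62% lower). The respiratory chain, TCA cycle and cell cycle lists lie far outside them.

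Circadian genes changed in both phases. Arntl encodes BMAL1, the activator of the core clock, and Dbp and Ciart are outputs that peak in the opposite phase. Arntl on chow read 1.59, 1.67, 2.02 and 2.04 CPM in the controls and 2.81 to 3.88 CPM (median 3.42) with renin. Arntl on the high-fat diet read 2.48 to 2.88 CPM (median 2.73) in the controls and 7.63, 2.94, 3.12, 3.104 and 3.98 CPM with renin. In both diets every renin heart was above every control (log2 fold change 0.75 ± 0.15 SE, adjusted p = 0.0026). Dbp on chow read 145, 131, 139 and 158 CPM in the controls and 81.5 to 128 CPM (median 113) with renin, and every renin heart was below every control. Dbp on the high-fat diet read 117 to 134 CPM (median 127) in the controls and 73.8, 85.4, 117, 130.1 and 89.7 CPM with renin, with 4 of 5 below (log2 fold change -0.37 ± 0.09 SE, adjusted p = 0.00893). Of 11 genes in the phase opposite to Arntl 5 were kept lower (7.62% of all genes), and of 6 in its phase 3 were kept higher (6.99%): Arntl, Npas2 and Clock. The count of 3 was 1 with the central nervous score as covariate. Clock lost its call in 14 of 21 single omissions, and without each of those hearts the count was 2. Leaving out 1 heart gave 3 to 6 of the 11, the 3 without high-fat renin 1. Per1, Per2 and Nr1d1 did not pass (adjusted p = 0.0662, 0.549 and 0.219). Per1 passed with DESeq2 (adjusted p = 0.0288) and without chow control 3, chow renin 2 or high-fat control 2 (edgeR adjusted p = 0.0207, 0.0367 and 0.0435). The hour at which hearts were collected is not given in the sources used here.

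Ciart (log2 fold change -0.49 ± 0.11 SE, adjusted p = 0.00756) is shown by its promoter because its RefSeq window holds 3 copies of the E-box CACGTG, the letters that BMAL1 and CLOCK are known to bind. Capitals mark them.
Ciart, chr3:95882179-95882478, minus strand: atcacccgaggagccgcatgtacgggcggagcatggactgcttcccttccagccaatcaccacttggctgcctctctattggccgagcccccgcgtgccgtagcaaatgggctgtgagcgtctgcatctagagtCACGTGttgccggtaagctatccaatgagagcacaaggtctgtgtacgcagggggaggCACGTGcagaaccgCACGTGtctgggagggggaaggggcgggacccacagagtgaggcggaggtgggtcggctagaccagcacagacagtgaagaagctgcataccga
Of 10 genes in the phase opposite to Arntl with a window 4 held CACGTG, against 11.3% of all tested genes with a window, 12.6% of the kept genes that rose and 9.86% of those that fell.

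A clock score, the mean log2 CPM of the genes opposed to Arntl minus that of the genes in its phase, was 3.0 to 3.28 in chow controls, 2.52 to 2.89 in chow renin hearts, 2.75 to 3.11 in high-fat controls and 1.99 to 2.83 in high-fat renin hearts. With this score as a covariate no gene passed (edgeR, smallest adjusted p = 0.0877; 1331 genes at an unadjusted p under 0.05). Of the 2223 kept genes 2203 (99.1%) had the same direction in that fit. Their median absolute log2 fold change went from 0.29 to 0.20, and their standard errors grew by a median factor of 1.52. Beyond diet, the vector accounted for 53.3% of the variance of the score, and the score is built from genes that are themselves among those tested. The clock's part in the other results therefore cannot be told apart from that of the vector in these hearts.

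**Figure D4:**
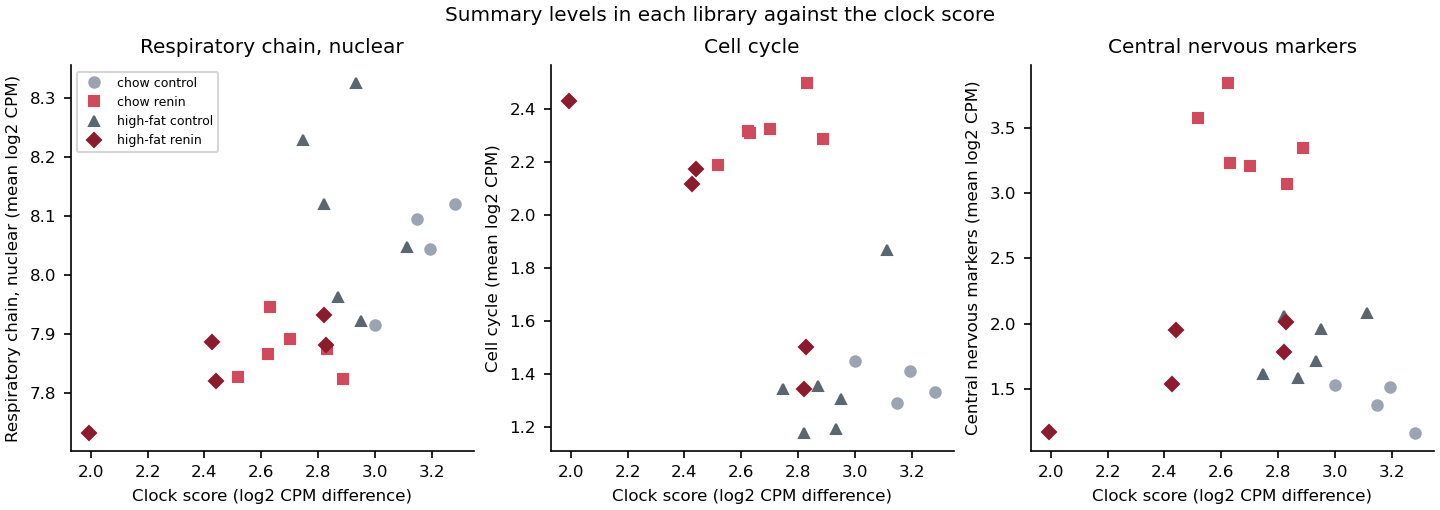
Each point is 1 library, with the clock score (log2) on the x axis and the mean log2 CPM of a gene list on the y axis. Cell cycle levels are 2.12 to 2.43 in high-fat renin hearts 1, 2 and 5 and 1.34 to 1.501 in hearts 3 and 4. Central nervous markers are high only in the chow renin hearts.

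Macrophage and inflammation genes gave 2 of 34 kept higher and 3 lower, near the background. Single omissions gave 1 to 2 higher (1 without chow control 1, 2 or 4, high-fat control 3 or high-fat renin 4) and 2 to 5 lower (5 without high-fat control 5), and DESeq2 gave 5 lower. The higher ones were the chemokine Cxcl1 at 0.88 and the lectin Lgals3 at 0.59, whose call was lost without chow control 1, 2 or 4. Both calls were lost with the central nervous score as covariate. Another chemokine, Ccl11 or eotaxin, had -1.16 ± 0.31 (SE), adjusted p = 0.017, with 2.18 to 7.06 CPM (median 3.098) in the controls and 0.548, 0.309, 1.76, 2.37 and 0.628 CPM with renin on the high-fat diet. Resident macrophage markers Folr2 (-0.47) and Timd4 (-0.62) were kept lower among 8 such markers, where 7.62% of all genes were. The Timd4 call ended in 15 of 21 single-library omissions, all but chow control 4, chow renin 4, high-fat control 1, 5 and 6 and high-fat renin 3.

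Immediate early genes had 5 of 20 kept higher and 1 lower, where 6.99% and 7.62% of all genes were. Arc, an activity-regulated transcript, read 4.78, 3.06, 8.25 and 4.65 CPM in the controls and 10.4 to 18.8 CPM (median 13.9) with renin on chow, above every control in 6 of 6. Among high-fat hearts Arc was 3.66 to 7.04 CPM (median 5.32) in the controls and 5.18, 9.89, 8.97, 9.73 and 13.9 CPM with renin, above every control in 4 of 5 (log2 fold change 1.12 ± 0.19 SE, adjusted p = 0.00125). Egr2, Egr3 and Fosl1, transcription factors of the same class, had 1.15, 1.0 and 1.33, with 1.97, 1.42 and 2.69 on chow against 0.54, 0.66 and 0.20 on the high-fat diet. Fosl1 is also a member of the stimulated mesenchymal marker list, and Egr2 of a Schwann cell marker list. The lower gene was Klf2, a shear-responsive factor of endothelium, at -0.36, named after its value was seen. No member was kept lower without chow control 4, high-fat control 5 or 6, or high-fat renin 1 or 5. The chow values stood beside the rise of the central nervous and stimulated mesenchymal markers, and with the central nervous score as covariate 1 of 20 was kept higher. In all, 5 of 26 interferon genes were kept higher (6.99% of all genes), among them Rsad2 at 0.42. The count was 2 with the central nervous score as covariate and 3 with no low-count filter or without the 5 hearts with atrial transcripts. Leaving out 1 heart gave 1 to 6 of 26: 1 without chow control 4, 2 without chow control 1, and 3 without chow control 2, high-fat control 2 or any chow renin heart.

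In the unfolded protein response, Asns, asparagine synthetase, and its activator Atf4 were the 2 of 24 genes kept, at 0.71 and 0.21, near the 6.99% of all genes kept higher. The renin effect on Asns differed between diets (1.18 on chow, 0.30 under high fat with adjusted p = 0.148, interaction adjusted p = 0.00394). Oxidative stress genes split into 5 of 24 kept higher, with Srxn1, sulfiredoxin, at 0.45, and 4 lower, where 6.99% and 7.62% of all genes were kept. The count of 5 was 3 without any of chow control 1, 2 or 4, chow renin 1 to 5, or high-fat renin 2, and 2 with the central nervous score as covariate. The count of 4 was 2 without chow control 4.

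Kept genes with a mean of at least 5 CPM were ranked by the smaller of their 2 within-diet changes. The top ones for the rise were Myh7, Edn3, Mki67, Apod, Rrm2, Acta1, Arc, Top2a, Cdkn1a and Mybpc2. The ranking does not require a call in either diet. Mki67, Rrm2, Arc and Top2a passed within each diet. Myh7, Edn3, Apod and Acta1 passed on the high-fat diet only, and Cdkn1a and Mybpc2 in neither. Apod, apolipoprotein D, read 2.19, 2.78, 4.88 and 2.81 CPM in the controls and 3.996 to 7.95 CPM (median 5.68) with renin on chow. Among high-fat hearts Apod was 2.29 to 6.49 CPM (median 3.72) in the controls and 5.604, 13.6, 6.53, 4.78 and 7.25 CPM with renin (log2 fold change 0.92 ± 0.21 SE, adjusted p = 0.00777). Of the renin hearts 3 of 6 on chow and 3 of 5 under high fat were above every control. Mybpc2, the fast skeletal myosin-binding protein C, had 1.05 ± 0.30 (SE), adjusted p = 0.0244. Chow control 3 (42.3 CPM) and high-fat control 3 (39.3 CPM), both with atrial transcripts, were far above the other controls for Mybpc2, and its call was lost without chow control 4.

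For the fall the top ranked genes were Lingo3, Inmt, Pfkfb1, Tmem100, Fgf16, Lamb3, Dnaaf3, Lrrc4b, Cyp26b1 and Sorcs2. Of these Lingo3 passed within each diet, Tmem100 and Cyp26b1 in neither, and the others on the high-fat diet only. Lingo3, a leucine-rich repeat membrane protein, read 12.4, 12.5, 8.36 and 11.9 CPM in the controls and 6.22 to 8.797 CPM (median 7.29) with renin on chow. On the high-fat diet Lingo3 read 8.76 to 15.2 CPM (median 10.6) in the controls and 5.44, 4.29, 8.22, 7.603 and 4.15 CPM with renin, all 5 renin hearts below every control (log2 fold change -0.78 ± 0.13 SE, adjusted p = 0.000917). Pfkfb1 read 17.9, 15.8, 11.9 and 17.6 CPM in the controls and 7.97 to 13.02 CPM (median 10.2) with renin on chow. Among high-fat hearts Pfkfb1 was 11.3 to 24.3 CPM (median 16.9) in the controls and 3.08, 3.05, 6.75, 11.3 and 5.62 CPM with renin. Below every control were 5 of 6 chow renin hearts and 5 of 5 high-fat renin hearts.

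Fgf16, a fibroblast growth factor of the heart, had -0.67 ± 0.15 (SE), adjusted p = 0.00616, and Tmem100, a membrane protein of endothelium, -0.63 ± 0.16 (SE), adjusted p = 0.0122. Lamb3, a laminin chain, had -0.76 ± 0.16 (SE), adjusted p = 0.00515, and Sorcs2, a sortilin-family receptor, -0.80 ± 0.20 (SE), adjusted p = 0.0133. Dnaaf3, a dynein assembly factor, had -0.72 and Lrrc4b, an adhesion protein, -0.79. Inmt, an indolethylamine methyltransferase, had -1.04 ± 0.33 (SE), adjusted p = 0.0369, and Cyp26b1, which breaks down retinoic acid, -0.79 ± 0.25 (SE), adjusted p = 0.0381. The Inmt call was lost without any of chow control 3 or 4, chow renin 4 or 5, high-fat control 3 or 5, or high-fat renin 1 or 2. The Cyp26b1 call was lost without any of chow control 2 or 3, chow renin 1, 2, 4 or 5, high-fat control 5 or 6, or high-fat renin 1, 4 or 5.

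Lrp8, Mtpn, Smtn and Cd44 are given for their small adjusted p-values and were chosen after these were seen. Lrp8, a lipoprotein receptor for reelin, read 1.64, 0.9998, 2.44 and 1.21 CPM in the controls and 3.09 to 6.202 CPM (median 4.18) with renin on chow. Among high-fat hearts Lrp8 was 0.702 to 1.56 CPM (median 1.21) in the controls and 5.35, 3.98, 3.804, 2.79 and 4.499 CPM with renin. Renin and control hearts did not overlap in either diet (log2 fold change 1.68 ± 0.17 SE, adjusted p = 2.43e-05). Mtpn, myotrophin, a small ankyrin repeat protein, had 0.47 ± 0.06 (SE), adjusted p = 5.4e-05, again with no overlap in either diet. Smtn, smoothelin, a smooth muscle cytoskeletal protein, fell (log2 fold change -0.41 ± 0.05 SE, adjusted p = 5.4e-05) and Cd44, the hyaluronan receptor, rose (log2 fold change 0.82 ± 0.11 SE, adjusted p = 0.000211), both with no overlap in either diet. Over all genes tested, 53 (0.348%) separated renin from control hearts in both diets in 1 direction, 34 higher and 19 lower.

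Another 168 genes passed the additive test but had opposite signs in the 2 diets, 166 of them with a positive additive value. Idi1, of cholesterol synthesis, Arf3, a small GTPase, and Pgm2l1, a sugar-phosphate enzyme, had additive values of 0.53, 0.34 and 0.48 made of 1.14, 0.76 and 1.06 on chow but -0.02, -0.02 and -0.01 on the high-fat diet. Those 3 had their change on chow, beside the nervous markers, and all lost their call with the central nervous score as covariate and without the 5 hearts with atrial transcripts. The Arf3 call was lost without chow control 1, 2 or 4 and the Pgm2l1 call without any 1 of the 4 chow controls. Haus8, of the mitotic spindle, and Syt7, a synaptotagmin, were carried by the high-fat diet, at 0.89 and -0.68 there. None of the 168 is counted among the kept genes.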

How the data were processed

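Total RNA from freeze-clamped hearts was sequenced in 21 libraries, and per the submitters' processing notes transcripts were quantified with Salmon 1.10.2 and DESeq2 1.40.2 was used, with GRCm38/mm10 as the build. The deposited files give, per transcript, estimated counts (expected counts, need not be whole) and TPM, per the file headers. Estimated counts of 119215 transcripts were summed to genes with the reference annotation of the same build (98.0% of transcripts matched; the unmatched held 0.854 to 0.925% of reads) and rounded. TPM, also summed per gene, served only for the Myh7 share. Library totals were 18.7 to 29.3 M (mega) reads, and precision of low genes is limited by these totals and by 4 to 6 hearts a group. Labels do not tie libraries to animals beyond naming 4 to 6 mice a group, so p-values measure the spread between these libraries.

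edgeR 4.0.16 in R 4.3.3 (filterByExpr, TMM, quasi-likelihood test, Benjamini-Hochberg) was run on 15216 of 23855 genes with reads, with vector plus diet as terms, and as a 4-group model for within-diet effects and their difference. The call threshold was an adjusted p of 0.05. CPM values use TMM-scaled library sizes. The procedure was tested on simulated data. Groups come from the sample titles.

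Genes were named by rule: the 10 rising and 10 falling kept genes with the largest smaller within-diet change (mean of at least 5 CPM), up to 4 kept members per list, a panel, and 5 genes with opposite signs. Members and lists were chosen with earlier results of these data known. Sequences are RefSeq promoter windows, with a window for 11393 tested genes. Alternatives were other scalings, DESeq2 1.42.0, filters, thinning, a replicate block, covariates and leaving out each library. Leaving out the 5 libraries with atrial transcripts was chosen after seeing the data.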

Additional observations from a re-analysis of the deposited data

Results flagged for a closer look

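Of 224 groups of 4 to 6 values examined, 19 held a heart far from the others (8.48%). The cut-off was set to about 1 in 20 for independent, normally spread values, and these groups share libraries. Atrial transcripts accompany several: the atrial score was 7.27 in chow control 3, and it reached 7.13 for high-fat control 3 and 6.67 for heart 3 of the high-fat renin group. In chow control 3, Cilp read 22.9 CPM (other chow controls 2.89 to 3.29), Mybpc2 42.3 CPM (13.3 to 15.4) and Nos1 1.04 CPM (0.333 to 0.436), while Lingo3 read 8.36 CPM (11.9 to 12.5). In high-fat control 3, Cilp read 20.8 CPM (3.07 to 9.21), Mybpc2 39.3 CPM (9.34 to 16.2) and Sorcs2 36.0 CPM (20.5 to 26.3).

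Among the renin hearts, chow renin 6 had the lowest stress score of its group at 5.89 (others 6.68 to 7.14). Timd4 read 1.19 CPM in chow renin 4 (0.665 to 0.746). High-fat renin 4 had 18.7 CPM of Cenpf (7.04 to 9.44) and 21 CPM of Fgf16 (10.6 to 13.2). High-fat renin 1 had 7.63 CPM of Arntl (2.94 to 3.98), and high-fat renin 2 had 13.6 CPM of Apod (4.78 to 7.25). Of the high-fat controls, heart 6 had 24900 CPM of Myh6 and 7.06 CPM of Ccl11 (2.18 to 3.87), and heart 4 a cell cycle score of 1.87.

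The renin effect differed between diets, as the high-fat minus the chow log2 fold change, for Acta1 (3.04, edgeR interaction adjusted p = 0.0145), Xirp2 (1.72, adjusted p = 0.00337), Col8a1 (1.18, adjusted p = 0.0211) and Lox (-1.85, adjusted p = 9.51e-05). Acta1, Xirp2 and Col8a1 had the larger effect on the high-fat diet and Lox on chow.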

How the results depend on the processing

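Under the scalings, filters and tools run, save those named here, the 4 total counts stayed within 1.5 times of the reported ones. Their splits moved more: upper-quartile scaling gave 53 genes lower in both diets and 281 with a more positive effect on the high-fat diet, and no low-count filter gave 773 lower in the additive test, 772 kept lower, 46 lower in both diets and 312 with a more positive effect. Without the 5 libraries with atrial transcripts the last 2 were 47 and 197. At a mean of at least 20 CPM (5565 genes tested) 1085 genes passed, 1057 were kept, 44 passed in both diets and 178 differed between diets. With no low-count filter 135 passed in both diets. With the clock score as a covariate 0 genes passed, 0 were kept and 0 passed in both diets (edgeR; 1331 at an unadjusted p under 0.05), and Ccn2 (-0.025) and Nppb (-0.36) changed sign. Neither had passed. With the central nervous score as covariate 1 gene passed in both diets and 24 differed between diets. That score was high in chow renin hearts alone, so this fit cannot judge either count. The cause was not tested.

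Leaving out 1 library gave 1439 to 2644 genes passing the additive test, 1429 to 2397 kept, 105 to 274 passing in both diets and 1220 to 1951 differing between diets. Without chow control 4 the first 2 counts were lowest, and without chow control 2 the additive count was 1573. Splits moved too. Genes passing in both diets were 82 higher and 30 lower without chow control 1, 125 and 139 without chow control 3, and 64 and 46 without high-fat renin 1. Genes with a more positive effect on the high-fat diet were 195 without high-fat renin 1 and 731 without high-fat renin 4.

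Of 111 called genes followed, 83 kept the call in all 21 omissions. The labels do not say what equal replicate numbers share, if anything. With the replicate number as a block 2037 genes were kept, 2071 passed the additive test, 208 passed in both diets and 1618 differed between diets. Residuals of 28 same-number pairs correlated at 0.09 on average (-0.226 to 0.421), against -0.02 for 136 other pairs. Of the 21 libraries 7 correlated best with their own number. Replicate 3 of every group was among the libraries with atrial transcripts, beside chow renin 1. What the numbers stand for was not tested. The block also gave 5 of 13 mitochondrially encoded genes kept lower, 3 of 26 interferon genes kept higher and a stress list median of 0.78. With every library thinned to the smallest, 1014 genes were kept higher and 1018 lower.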

Other observations

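Targets of steroid receptors gave 2 of 16 genes kept higher (Cdkn1a, at 0.81, and Mt2, a metallothionein, at 0.65) and 1 lower (Klf9, a transcription factor, at -0.19), where 6.99% and 7.62% of all genes were. Mt2 lost its call in 15 of 21 single omissions (all but chow renin 6, high-fat control 3, 4 and 6, and high-fat renin 3 and 4), and Klf9 without chow control 1 or 2 or high-fat renin 1 or 2. Heat shock genes gave 2 of 17 kept higher, Hsp90aa1, the inducible cytosolic chaperone, at 0.44 and Hspb7, a small heat shock protein of heart, at 0.22, and 4 of 17 with the central nervous score as covariate (6.99% of all genes were kept higher). Hspb7 kept its call only without chow renin 3 or 6, high-fat control 5 or high-fat renin 4, among the single omissions. Markers of endothelium, blood, adipose tissue and lymphocytes had no kept member. Fibroblast and smooth muscle markers each had 1 of 8 kept lower (Dpep1 and Kcnj8), where 7.62% of all genes were. Kept higher were 3 of 7 astrocyte markers (Gjb6, Aldoc and Slc1a3) and 1 of 8 oligodendrocyte markers (Mog), where 6.99% of all genes were. So were 1 of 4 Schwann cell (Egr2) and 1 of 8 stimulated mesenchymal markers (Fosl1). On chow the astrocyte and oligodendrocyte medians were 2.38 and 2.20, against -0.10 and -0.12 on the high-fat diet. Aldoc, Gjb6 and Mog lost their calls in 4, 10 and 4 of 21 single omissions.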
